A study of Mus musculus with 90 samples.

Results

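Cebpa, Cebpb, Cebpd, Foxa1, Foxa2, Foxa3, Onecut1 and Prox1 were followed in mouse liver through 54 RNA-seq libraries from 5 experiments. These 8 transcription factor genes were selected by symbol out of 24308 symbols in the deposited expression table. Where several RefSeq transcripts carried 1 symbol, the transcript with the highest mean level was used. All 8 passed the minimum mean level of 0.5 RPKM (reads per kilobase of transcript, scaled to the mapped reads of the library) in each of the 5 experiments.

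The study asked how the liver prepares for a meal and responds to it, and which part the glucocorticoid receptor (GR) and the insulin-inhibited factor FOXO1 play. All mice are labelled C57BL/6. The methods name the C57BL/6N substrain for the NRF, injected and GR experiments and C57BL/6J for the insulin receptor substrate one, so the mice of different experiments were not all of 1 substrain. All were trained to night-restricted feeding (NRF), with food withheld during the light phase. Time is given as zeitgeber time (ZT), in hours after lights on. In the NRF experiment, livers of untreated male wild-type mice aged 10 weeks were taken at ZT10, at ZT14 without food (ZT14-unfed) and at ZT14 after food had been given (ZT14-fed), with 2 mice per group and ribosomal RNA-depleted libraries. All other experiments used poly(A) RNA from livers taken at ZT14. In the injected experiment (wild type, aged 10 weeks, 4 mice per group), unfed mice received PBS, and fed mice received PBS, the synthetic glucocorticoid dexamethasone (dex, 1 mg/kg), the insulin receptor antagonist S961, or both. The S961 dose is labelled 44 nM per mouse, whereas the methods state it by body weight, so the amount given is uncertain here. In the GR experiment, unfed Nr3c1 fl/fl mice had been given adeno-associated virus with GFP or with Cre recombinase, both driven by the hepatocyte promoter Tbg, and the Cre mice are called L-GRKO (4 mice per group). In the insulin receptor substrate experiment, Irs1 fl/fl, Irs2 fl/fl mice with or without Alb-Cre, aged 10 weeks, were all fed and all given dex at 1 mg/kg, and the Alb-Cre mice are called L-IRSdKO (4 mice per group). In the diet experiment, mice of 5 weeks of age ate a high-fat diet (obese) or chow (lean) for 10 weeks, were then trained to NRF and were taken unfed or fed (3 mice per group). The methods do not state which food the obese mice received during NRF and at the meal, nor how much either group ate. Obesity, long-term diet and the food of the meal therefore cannot be told apart here. Each library came from 1 mouse.

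C/EBP proteins are basic leucine zipper factors that dimerize with each other. C/EBPα (Cebpa) keeps up the program of the differentiated hepatocyte, and C/EBPβ (Cebpb) and C/EBPδ (Cebpd) are the members known to be induced by fasting hormones, glucocorticoids and inflammation. FOXA1, FOXA2 and FOXA3 are forkhead factors that open chromatin at hepatocyte genes, and FOXA2 and FOXA3 also act in fasting metabolism. HNF6 (Onecut1) is a cut-homeodomain factor of the liver and bile duct, and PROX1 (Prox1) is a homeodomain factor needed for liver growth that also marks lymphatic endothelium.

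In mm9 the members lie at chr7:35904312-35906945 (Cebpa), chr2:167514415-167515918 (Cebpb), chr16:15887379-15888559 (Cebpd) and chr9:74709728-74737591 (Onecut1) on the plus strand. Foxa1 (chr12:58641618-58647108), Foxa2 (chr2:147868613-147872705), Foxa3 (chr7:19598631-19608887) and Prox1 (chr1:191945660-191994559) lie on the minus strand. All are annotated as protein-coding except Cebpd, which the GENCODE vM1 annotation used here lists as a pseudogene. All 8 genes had at least 1 GR peak within 50 kb of the transcription start site (TSS) in the deposited ChIP-seq list of unfed livers, against 47.9% of 10314 expressed genes. A FOXO1 peak lay in that window for 7 genes, against 50.6% of the same genes, and Foxa1 was the exception, with its nearest FOXO1 peak 98622 bp downstream. DNase I hypersensitive sites (DHSs) flanked all 8, as they did 99.7% of expressed genes. Cebpa had 7 GR peaks, a number reached by 1.3% of genes. Cebpb had 5 (reached by 4.7%), Prox1 had 4 (8.3%) and Foxa2 had 3 (14.3%). Cebpd, Foxa3 and Onecut1 had 2 each (26.6%), and Foxa1 had 1. The nearest GR peak centre lay 178 bp upstream of the Foxa2 start, 1114 bp upstream of Cebpb and 2554 bp upstream of Cebpa. It lay downstream of the start for the other members, by 2574 bp at Cebpd, 4896 bp at Onecut1, 6590 bp at Foxa1, 7320 bp at Foxa3 and 22672 bp at Prox1. The GR and FOXO1 lists give positions that replicate libraries of unfed livers shared. The DHS list gives positions called on the combined reads of fed and unfed livers. Without per-sample heights, peak presence is described here without a test.

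**Figure D1:**
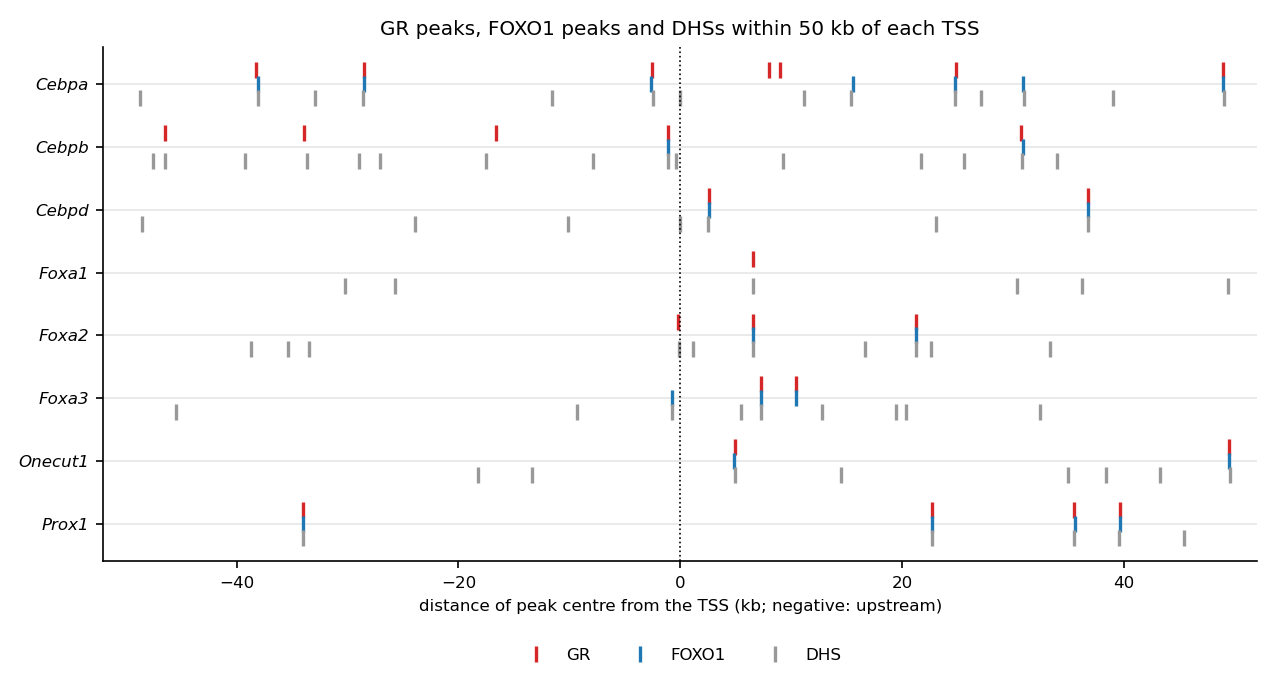
Positions of GR peaks (red), FOXO1 peaks (blue) and DHSs (grey) within 50 kb of the TSS of each gene, as distance of the peak centre from the TSS in kb, with upstream to the left. Red and blue marks coincide at most positions, Cebpa holds 7 of each, and Foxa1 holds 1 red mark and no blue one.

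Of the 26 GR peaks near these genes, 18 overlapped a FOXO1 peak (69.2%, against 48.8% of all 10446 GR peaks) and 21 overlapped a DHS (80.8%, against 81.6%). Of the 22 FOXO1 peaks near them, 18 overlapped a GR peak (81.8%, against 59.7% of all 8546). The peaks were searched on both strands for the GR palindrome core ACANNNTGT, the forkhead motif TGTTTAC and the C/EBP motif TTGCNNAA. The forkhead motif was in 9 of the 22 FOXO1 peaks (40.9%, against 18.8% of all FOXO1 peaks). The GR core was in 4 of the 26 GR peaks (15.4%, against 20.3% of all), and the C/EBP motif was in 5 of them (19.2%, against 31.5%). Neighbouring peaks of 1 gene and overlapping GR and FOXO1 peaks share sequence, so these shares do not come from independent sites. Of the 300-base RefSeq promoters of the members (GRCm38.p6), which were matched for 7 of the 8 symbols, 1 promoter of Foxa2 held the GR core (found in 6.8% of all promoters) and that of Foxa1 held the forkhead motif (3.6% of all).

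The following 6 peak sequences of the mm9 genome were chosen because they lie near these genes and hold a searched motif. All are written 5′ to 3′ on the plus strand of the reference, with the motif in capitals. The Cebpa FOXO1 peak (chr7:35901550-35901729, intergenic, 2672 bp upstream) overlaps a GR peak and holds the forkhead motif. The Cebpb GR peak (chr2:167513211-167513390, 1114 bp upstream, in an intron of Tmem189) overlaps a FOXO1 peak and a DHS and holds the C/EBP motif, read on the minus strand. The Cebpd GR peak (chr16:15889864-15890043, 2574 bp downstream of the start, beyond the end of Cebpd and in an exon of 2310008H04Rik) holds the GR core. The Foxa2 FOXO1 peak (chr2:147866067-147866246, intergenic, 6548 bp downstream of the start) holds the C/EBP and the forkhead motif. The Foxa3 GR peak (chr7:19598367-19598546, intergenic, 10430 bp downstream of the start) holds the GR core, and the Prox1 FOXO1 peak (chr1:191971731-191971910, in an intron of Prox1) holds the forkhead motif.
Cebpa FOXO1 peak: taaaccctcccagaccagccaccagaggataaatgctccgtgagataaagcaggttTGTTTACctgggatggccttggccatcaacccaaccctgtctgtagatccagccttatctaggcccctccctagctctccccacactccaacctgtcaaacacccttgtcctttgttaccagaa
Cebpb GR peak: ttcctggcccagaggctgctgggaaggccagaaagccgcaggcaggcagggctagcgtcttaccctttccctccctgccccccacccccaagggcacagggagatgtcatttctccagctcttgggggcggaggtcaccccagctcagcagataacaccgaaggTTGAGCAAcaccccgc
Cebpd GR peak: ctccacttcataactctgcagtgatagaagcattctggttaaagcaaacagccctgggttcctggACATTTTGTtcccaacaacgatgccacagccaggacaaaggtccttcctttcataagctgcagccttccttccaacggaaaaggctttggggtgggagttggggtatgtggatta
Foxa2 FOXO1 peak: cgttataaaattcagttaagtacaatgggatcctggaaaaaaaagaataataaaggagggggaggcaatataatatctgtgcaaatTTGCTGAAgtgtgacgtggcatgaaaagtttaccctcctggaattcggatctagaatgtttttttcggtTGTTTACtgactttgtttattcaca
Foxa3 GR peak: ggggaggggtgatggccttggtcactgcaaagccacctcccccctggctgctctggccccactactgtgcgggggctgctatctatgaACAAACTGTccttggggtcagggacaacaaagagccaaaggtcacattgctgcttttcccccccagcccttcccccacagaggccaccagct
Prox1 FOXO1 peak: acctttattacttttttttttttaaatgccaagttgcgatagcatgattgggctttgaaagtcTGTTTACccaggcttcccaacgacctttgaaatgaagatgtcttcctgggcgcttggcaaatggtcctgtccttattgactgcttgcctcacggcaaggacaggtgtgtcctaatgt

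The libraries matched their labels at the targeted genes, with 1 reservation. Nr3c1, which encodes GR, averaged 14.2 RPKM in GFP livers and 4.41 RPKM in L-GRKO livers (log2 difference -1.58, adjusted p = 6.83e-05). Irs1 averaged 4.03 and 0.199 RPKM in control and L-IRSdKO livers (log2 difference -2.66, adjusted p = 9.17e-04), while Irs2, at 2.19 and 0.773 RPKM, did not pass the test (adjusted p = 0.31). Depth, read from the smallest step between RPKM values, was 26.2 to 38.3 Mreads (megareads) in NRF libraries, 6.5 to 13.6 Mreads in injected, 15.2 to 27.5 Mreads in GR and 16.9 to 62.2 Mreads in diet libraries. In the insulin receptor substrate libraries the same step gave 3.6 to 4.5 Mreads. The paper's sequencing summary lists more reads for each of these libraries. The cause of this difference was not tested, so their counted depth is uncertain. In those libraries the highest RPKM of any gene was 673.9 to 914.2, against 18853.0 to 60596.8 elsewhere. The 50 highest genes held 6.6 to 7.6% of the summed RPKM there, against 33.4 to 46.8% elsewhere. Member levels there were therefore compared within the experiment only. Whether differences of abundant genes are also compressed within it was not tested. Cebpd had the fewest reads, with 12 in the lowest library, and Onecut1 had at least 48 and Foxa1 at least 89. Cebpb shares 312 exonic bases with Tmem189 and Prox1 shares 133 with Gm17566, both on the opposite strand, and Onecut1 shares 479 with Gm16551 on the same strand. Whether counting used strand is not given in the sources used here, so reads of these pairs cannot be told apart. The 10 hepatocyte markers, Alb and Ttr among them, summed to at least 31823 RPKM in all libraries outside the insulin receptor substrate experiment. Within that experiment they summed to at least 3218 RPKM. The 7 neutrophil and lymphocyte markers summed to at most 13.4 RPKM in any library. Of these 7, 0 reached the level needed for testing in NRF, GR and diet libraries. In injected libraries 2 were tested and in insulin receptor substrate libraries 3, with 0 called. In bulk liver, fewer cells of a type and less RNA per cell cannot be told apart.

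In the 17 comparisons tested with limma on log2(RPKM + 0.5), the meal in lean mice changed the most of these genes. A gene was called at a Benjamini-Hochberg adjusted p under 0.01 in the NRF experiment and under 0.05 in the others. Feeding lean mice changed 5 of the 8 members, where 23.4% of all genes were called. Feeding obese mice changed 1 (background 7.65%), obesity in the unfed state changed 3 (5.22%), obesity in the fed state changed 0 (0.507%), and the effect of the meal differed between diets for 3 (0.744%). In the injected mice, feeding changed 1 member (3.13%), S961 changed 1 (1.89%), and dex with S961 changed 3 (10.6%). Dex alone (3.19%), dex added to S961 (1.91%) and S961 added to dex (2.95%) changed 0 members. The dex by S961 interaction had 0 calls among all 11248 genes (0%), with 513 genes at an unadjusted p under 0.05. GR loss changed 3 members (6.68%) and loss of both insulin receptor substrates changed 2 (17.4%, so that this share of 8 lay near the background). In the NRF experiment 0 members passed between ZT10 and ZT14-unfed (1.16%), between ZT14-unfed and ZT14-fed (0.990%) and between ZT10 and ZT14-fed (1.71%). Feeding, dex, S961 and their combination were all compared with the same fed PBS mice or include them, and the meal in lean mice, obesity in unfed mice and their interaction share the lean unfed mice, so these comparisons are not independent of each other.

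**Figure D2:**
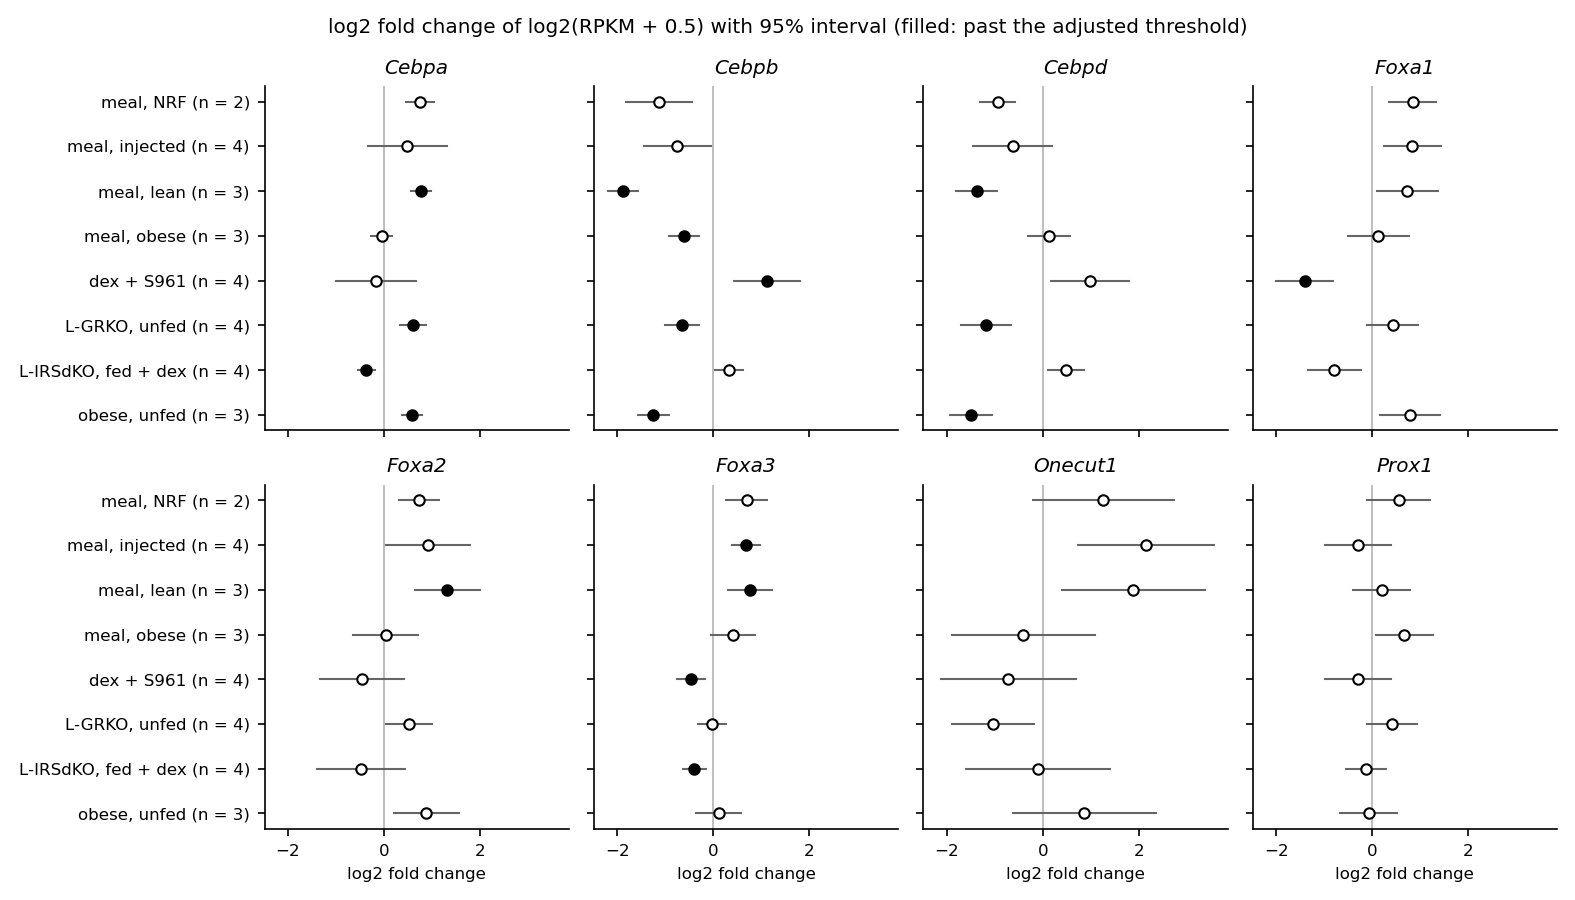
Log2 difference of each gene in 8 comparisons (points, on the log2(RPKM + 0.5) scale) with its 95% interval (lines). Filled points passed the adjusted threshold, and n is the number of mice per group. Cebpb and Cebpd lie on the opposite side of 0 from Cebpa in the lean meal, in L-GRKO and in unfed obese mice.

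Among the C/EBP genes, the meal in lean mice lowered Cebpb and Cebpd and raised Cebpa. Cebpb stood at 51.7, 62.6 and 55.5 RPKM in the lean unfed livers and at 12.3, 18.7 and 14.5 RPKM in the lean fed livers. Every fed liver was far below every unfed one, and Cebpb ranked 3 among 11431 genes by the size of its moderated t statistic (log2 difference -1.88, 95% interval -2.20 to -1.56, adjusted p = 1.38e-04). Cebpd stood at 6.28, 4.36 and 4.49 RPKM unfed and 1.28, 2.05 and 1.54 RPKM fed, again without overlap (log2 difference -1.38, 95% interval -1.81 to -0.95, adjusted p = 0.0011). Cebpa moved the other way, from 71.4, 69.7 and 69.8 RPKM unfed to 112, 119 and 129.5 RPKM fed (log2 difference 0.77, 95% interval 0.56 to 0.98, adjusted p = 6.09e-04). The 3 unfed values of Cebpa lay within 2 RPKM of each other and all fed values were higher. These 3 calls held under all 14 alternatives tried, which here and in the other counts of alternatives leave aside the stricter threshold of 0.01.

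In obese mice the C/EBP genes started the meal at other levels. Unfed, Cebpb stood at 22.6, 20.7 and 27.5 RPKM in obese livers, all below the lean unfed range (log2 difference -1.25, 95% interval -1.57 to -0.93, adjusted p = 0.0027). Cebpd stood at 1.66, 1.45 and 1.24 RPKM, all below the lean unfed range (log2 difference -1.495, 95% interval -1.92 to -1.07, adjusted p = 0.0034). Cebpa stood at 106, 94.1 and 119 RPKM, all above the lean unfed range (log2 difference 0.59, 95% interval 0.37 to 0.80, adjusted p = 0.010). The calls of Cebpb and Cebpd held in all 14 alternatives and that of Cebpa in 13 of 14, being lost when the 2 unfed groups were fitted alone (adjusted p = 0.087). Endothelial markers moved with the same contrast: 4 of 6 tested were lower in obese unfed livers, with summed levels of 33.2 to 42.8 RPKM against 58.0 to 69.9 RPKM in lean unfed and 41.9 to 49.0 RPKM in lean fed livers. They were also lower in 4 of 6 cases after the lean meal, and their part in the C/EBP differences was not tested.

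After the meal the levels of Cebpb and Cebpd overlapped between the 2 diets. Cebpb stood at 15.8, 14.6 and 15.1 RPKM in obese fed livers, within the lean fed range. The meal still lowered it in obese mice (log2 difference -0.61, 95% interval -0.93 to -0.29, adjusted p = 0.030), although 5 of the 6 fits that left out 1 library missed the threshold (adjusted p 0.054 to 0.11). The exception was obese unfed replicate 2. Cebpd stood at 1.17, 1.69 and 2.14 RPKM in obese fed livers and did not pass the test of the meal (log2 difference 0.13, 95% interval -0.30 to 0.56, adjusted p = 0.73). Cebpa, at 110.3, 103 and 94.4 RPKM, did not pass either (log2 difference -0.05, 95% interval -0.26 to 0.16, adjusted p = 0.79). Obese and lean fed livers did not differ past the threshold for Cebpb (log2 difference 0.02, 95% interval -0.30 to 0.34, adjusted p = 0.96), Cebpd (log2 difference 0.02, 95% interval -0.41 to 0.44, adjusted p = 0.97) or Cebpa (log2 difference -0.23, 95% interval -0.45 to -0.02, adjusted p = 0.22). All 3 obese fed values of Cebpa lay below the lean fed ones.

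The meal by diet interaction tests whether the difference between fed and unfed mice was the same in obese and lean mice, whatever food each ate. It was called for all 3 C/EBP genes and for 0 of the other 5. The meal effect on Cebpb was less negative in obese mice (log2 difference 1.27, 95% interval 0.82 to 1.72, adjusted p = 0.022), as was that on Cebpd (log2 difference 1.51, 95% interval 0.91 to 2.12, adjusted p = 0.037). The effect on Cebpa was less positive (log2 difference -0.82, 95% interval -1.12 to -0.52, adjusted p = 0.026). These calls rest on 3 mice per group and sit near the threshold. They were kept in 12 of 19 alternatives for Cebpb, 11 of 19 for Cebpa and 9 of 19 for Cebpd, with adjusted p between 0.013 and 0.095. Leaving out single libraries ended the call in 6 of 12 fits for Cebpb, 6 of 12 for Cebpa and 8 of 12 for Cebpd. For all 3 genes these libraries included lean unfed replicates 2 and 3, obese fed replicates 2 and 3 and lean fed replicate 3. Cebpa also lost the call without lean fed replicate 2, Cebpb without obese fed replicate 1, and Cebpd without obese unfed replicate 3, lean unfed replicate 1 or lean fed replicate 1.

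**Figure D3:**
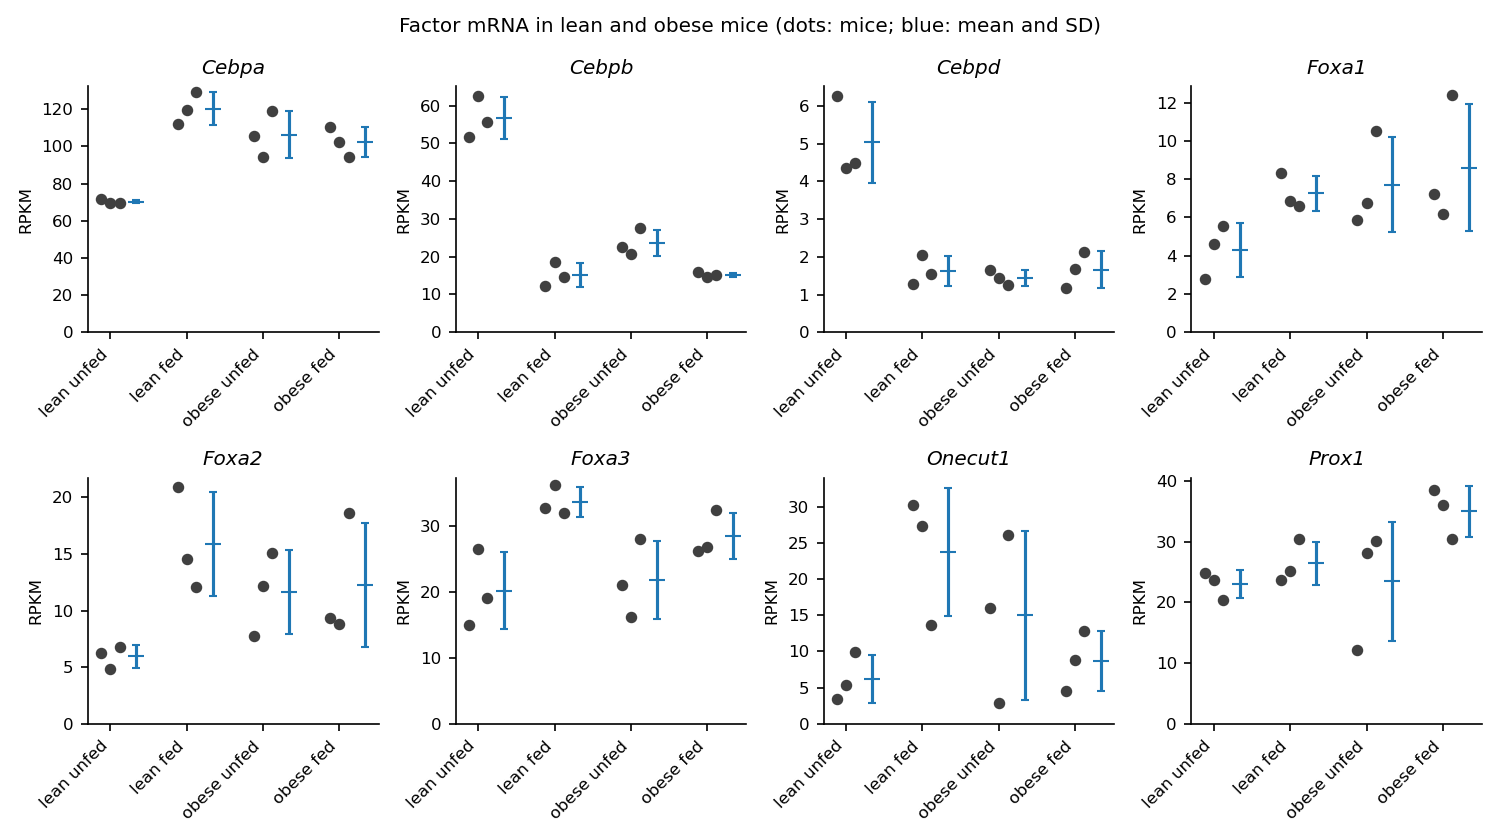
Levels (RPKM, axes from 0) of the 8 genes in the diet experiment, with 1 dot per mouse and the group mean and SD in blue. The lean unfed mice stand apart from the other 3 groups for Cebpa (69.7 to 71.4 RPKM), Cebpb (51.7 to 62.6 RPKM) and Cebpd (4.36 to 6.28 RPKM).

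In the untreated mice of the NRF experiment, with 2 mice per group, fed livers also held more Cebpa and less Cebpb and Cebpd than ZT14-unfed livers, without passing the test. Cebpa stood at 63.6 and 59.1 RPKM at ZT10, 41.9 and 49.6 RPKM in ZT14-unfed and 70.2 and 84.1 RPKM in ZT14-fed livers. Cebpb stood at 18.6 and 16.3, 15.5 and 32.3, and 9.24 and 10.6 RPKM in these groups, and its first unfed liver lay below the ZT10 values and the second above them. Cebpd stood at 3.12 and 3.01, 3.49 and 4.87, and 2.06 and 1.79 RPKM. The unfed and fed values of the 3 genes lay apart. In this comparison 3020 of 10904 genes had an unadjusted limma p under 0.05. The share of all genes that lay apart was not counted, so with 2 mice per group this separation is a description. At 0.01, 0 of the 3 passed, where 0.990% of all genes were called. The values were log2 difference 0.75, adjusted p = 0.020 for Cebpa, log2 difference -1.14, adjusted p = 0.062 for Cebpb and log2 difference -0.94, adjusted p = 0.020 for Cebpd. Without ZT14-unfed replicate 1, Cebpb (adjusted p = 9.89e-04) and Cebpd (0.0063) passed. That fit keeps 1 mouse in the unfed group, the one with the higher Cebpb and Cebpd levels, and assumes that it varies like the other groups. Over all alternatives their adjusted p ranged from 9.89e-04 to 0.25 and from 0.0063 to 0.15.

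In the injected mice, replicate 4 of every group stood apart from replicates 1 to 3. These 5 libraries carry a separate run of library numbers in the labels, and their deviations from the group means correlated at 0.44 to 0.60 across genes. Replicate 4 was the highest of its group in 5 of 5 groups for Cebpa, Cebpb, Cebpd and Prox1, at a median of 2.41, 1.64, 2.04 and 1.48 times the mean of the other 3. For this reason injected results are also given with the library series as a term, or for replicates 1 to 3 alone, where this changed a call. The fit of replicates 1 to 3 alone was added after these values were seen.

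Cebpb stood at 30.4, 36.7, 27.6 and 46.1 RPKM in unfed PBS livers and at 14.6, 17.7, 16.5 and 39.9 RPKM in fed PBS livers (replicates 1 to 4 in this order, as for all injected groups). The fed replicates 1 to 3 were below all unfed livers, and fed replicate 4 was below unfed replicate 4 but inside the unfed range. The pooled test of the meal was not passed (log2 difference -0.75, 95% interval -1.44 to -0.06, adjusted p = 0.22), but it was passed with the series term (-0.75, adjusted p = 0.022) and in replicates 1 to 3 (log2 difference -0.93, adjusted p = 0.028), with adjusted p over all alternatives of 0.021 to 0.43. Cebpd stood at 3.45, 4.31, 2.72 and 7.11 RPKM unfed and 1.69, 1.81, 2.86 and 4.33 RPKM fed, and Cebpa at 39.9, 38.3, 45.4 and 99.6 RPKM unfed and 54.98, 61.7, 60.1 and 131 RPKM fed. For Cebpa, fed replicates 1 to 3 lay above unfed replicates 1 to 3, and the groups overlapped through unfed replicate 4. Neither was called without a further term, and Cebpa was not called with one either. For Cebpa the log2 difference was 0.48, with adjusted p = 0.54 without a term, 0.067 with the series term and 0.085 with the replicate block. In replicates 1 to 3 it was 0.51 (adjusted p = 0.060). Cebpd passed with the replicate number as a block (-0.63, adjusted p = 0.049), just missed with the series term (adjusted p = 0.052) and did not pass without either (log2 difference -0.63, adjusted p = 0.41, all alternatives 0.049 to 0.66).

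Dex and S961 given together raised Cebpb. It stood at 27.6, 24.98, 31.5 and 56.2 RPKM with dex, 20.3, 31.6, 13.3 and 33.8 RPKM with S961 and 44.5, 40.2, 33.8 and 64.9 RPKM with both, against 14.6 to 39.9 RPKM in fed PBS livers. The combination was called (log2 difference 1.11, 95% interval 0.42 to 1.80, adjusted p = 0.037), also with the series term (1.11, adjusted p = 7.75e-04) and in replicates 1 to 3 (1.25, adjusted p = 0.0042). In fits that left out 1 library, 6 of 8 missed the threshold (adjusted p 0.067 to 0.11), the exceptions being fed PBS replicate 4 and dex with S961 replicate 3. Dex alone was called for Cebpb only with the series term or the replicate block (log2 difference 0.69, 95% interval 0.00 to 1.39, adjusted p = 0.27 without a term, 0.69, adjusted p = 0.030 with the series term, all alternatives 0.028 to 0.52). Dex added to S961 left the Cebpb values of the groups just apart, at 13.3 to 33.8 RPKM with S961 and 33.8 to 64.9 RPKM with both (33.76 and 33.84 RPKM at the nearest). It was not called (log2 difference 0.93, 95% interval 0.23 to 1.62, adjusted p = 0.20), but it passed with the series term (0.93, adjusted p = 0.0075), in replicates 1 to 3 (adjusted p = 0.046) and with the replicate number as a block (adjusted p = 0.0070, all alternatives 0.007 to 0.47). Same-numbered mice of these 2 groups deviated together in all 4 pairs. Cebpd stood at 2.77, 3.75, 3.89 and 9.03 RPKM with dex, 1.88, 2.64, 1.08 and 3.65 RPKM with S961 and 4.12, 5.01, 3.56 and 11.6 RPKM with both. Dex alone was not called for Cebpd (log2 difference 0.71, adjusted p = 0.35) except with the series term (adjusted p = 0.032) or the replicate block (0.030). With the series term Cebpd passed for the combination (0.98, adjusted p = 0.0023) and for dex added to S961 (1.17, adjusted p = 0.0013). In replicates 1 to 3 it passed for both as well (0.87, adjusted p = 0.034 and 1.04, adjusted p = 0.036). With all 4 replicates and no further term it did not (log2 difference 0.98, adjusted p = 0.12 and log2 difference 1.17, adjusted p = 0.16). With the replicate block, dex added to S961 also passed for Cebpd (adjusted p = 0.0014). Their adjusted p over all alternatives ran from 0.0023 to 0.34 and from 0.0013 to 0.43. Cebpa, at 51.9, 48.5, 52.2 and 69.6 RPKM with dex, 74.01, 55.3, 46.6 and 157 RPKM with S961 and 44.7, 46.9, 62.5 and 129 RPKM with both, was not called in any of these comparisons. Kupffer cell markers were lower in 4 of 8 cases with both agents, at 70.9 to 98.6 RPKM in sum against 108 to 132 RPKM in fed PBS livers. With dex alone 1 of 8 was lower (Cd5l, -0.74, adjusted p = 0.030), at 57.1 to 109.9 RPKM in sum, as were 2 of 6 endothelial markers (Kdr, -0.82, 0.0070, and Clec4g, -0.47, 0.039), at 53.3 to 69.6 RPKM in sum against 66.2 to 76.7 RPKM. Their part in the C/EBP differences was not tested.

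**Figure D4:**
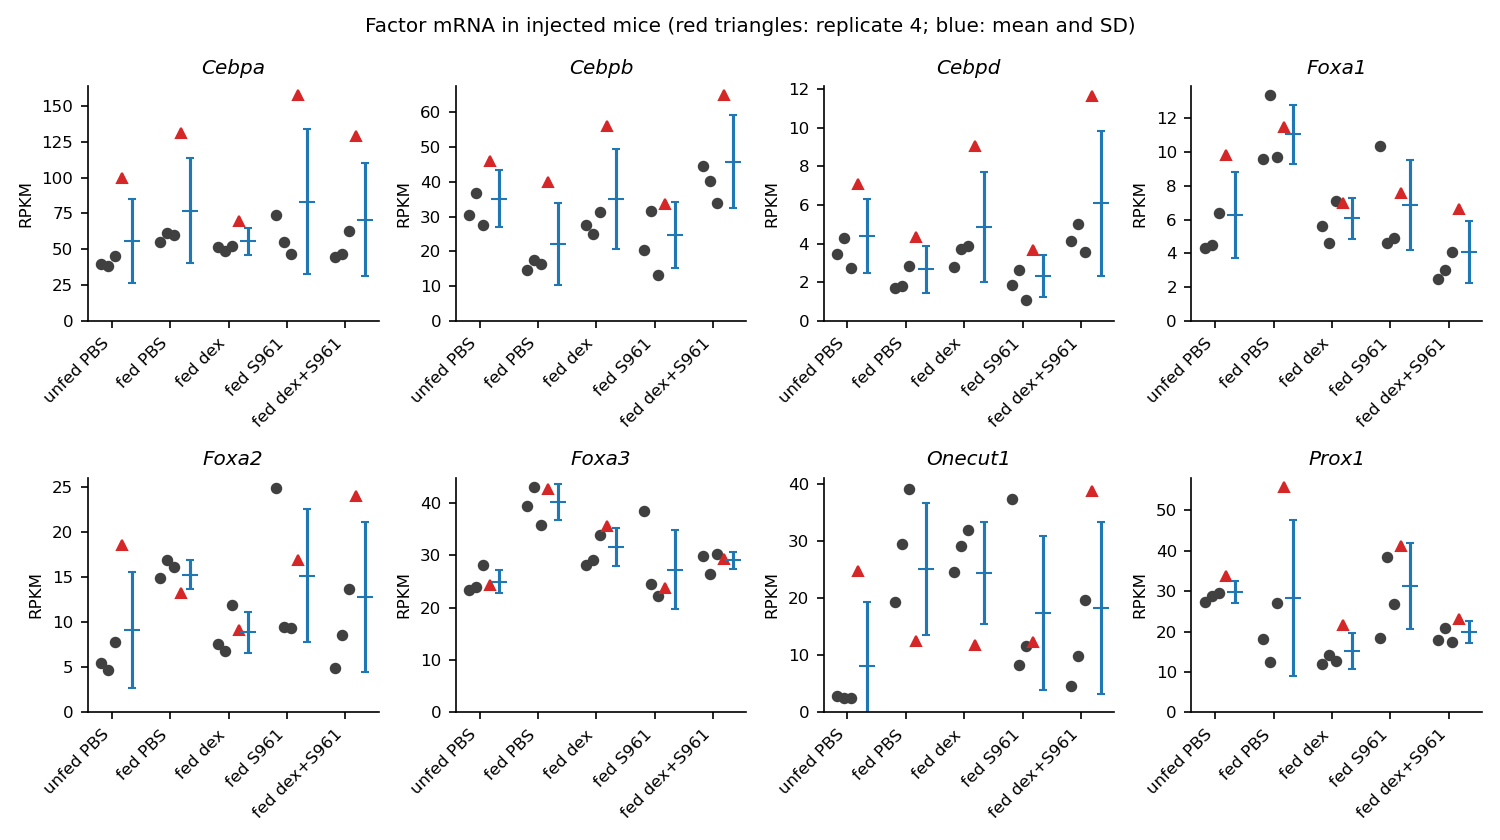
Levels (RPKM, axes from 0) of the 8 genes in the 5 injected groups, with dots for replicates 1 to 3, red triangles for replicate 4, and the mean and SD of all 4 in blue (the lower bar is drawn to 0 at most). The triangle is the highest value in all groups for Cebpa, Cebpb, Cebpd and Prox1, and the fed PBS mice hold the highest Foxa1 and Foxa3 means.

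Loss of GR in unfed livers lowered Cebpb and Cebpd and raised Cebpa. Cebpd stood at 2.17, 4.52, 3.89 and 2.97 RPKM in GFP livers and 1.31, 1.44, 1.45 and 0.608 RPKM in L-GRKO livers, without overlap (log2 difference -1.19, 95% interval -1.70 to -0.67, adjusted p = 0.014). Cebpb stood at 32.3, 36.6, 30.8 and 25.9 RPKM and 15.4, 21.7, 26.04 and 17.04 RPKM, where the highest L-GRKO value just passed the lowest GFP value (log2 difference -0.66, 95% interval -1.01 to -0.29, adjusted p = 0.038). Cebpa stood at 73.4, 87.7, 89.3 and 113 RPKM in GFP livers and at 132, 140.2, 131 and 146 RPKM in L-GRKO livers, all of the latter higher (log2 difference 0.61, 95% interval 0.34 to 0.88, adjusted p = 0.014). The Cebpa call was kept in all 15 alternatives and the Cebpd call in 13, being lost without GFP replicate 2 (adjusted p = 0.052) and without the filter on low genes (0.054). The Cebpb call was kept in 7 of 15 and was lost in 6 of 8 fits that left out 1 library (adjusted p 0.069 to 0.12), the exceptions being GFP replicate 4 and L-GRKO replicate 3. Cebpd in L-GRKO replicate 4, at 0.608 RPKM, rests on 12 reads. Among other markers, the hepatocyte genes Cps1 and Tdo2 were lower (2 of 10 tested) and the stellate cell gene Lrat higher (1 of 7) in L-GRKO livers, and their part in the C/EBP differences was not tested.

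Loss of Irs1 and Irs2 in fed, dex-treated livers lowered Cebpa. It stood at 152, 128, 157 and 145 RPKM in control livers and 117, 118, 113 and 102 RPKM in L-IRSdKO livers, without overlap (log2 difference -0.37, 95% interval -0.55 to -0.18, adjusted p = 0.017), and the call was kept in all 15 alternatives. Cebpb stood at 73.3, 67.8, 52.4 and 68.6 RPKM and 96.1, 78.1, 83.8 and 70.2 RPKM (log2 difference 0.32, 95% interval 0.04 to 0.61, adjusted p = 0.11), and Cebpd at 21.8, 14.9, 13.4 and 17.9 RPKM and 25.7, 26.1, 24.5 and 18.4 RPKM (log2 difference 0.47, 95% interval 0.10 to 0.85, adjusted p = 0.083). Neither passed, apart from Cebpd without control replicate 1 (adjusted p = 0.041, all alternatives 0.041 to 0.19). In this experiment Kupffer cell markers summed to 213 to 377 RPKM in controls and 361 to 437 RPKM in L-IRSdKO livers, with 2 of 8 called higher, and endothelial markers to 95.3 to 120.6 and 115 to 152 RPKM, with 4 of 6 called higher. Cholangiocyte markers summed to 19.9 to 46.3 and 7.999 to 13.97 RPKM, with 2 of 4 tested called lower, and stellate cell markers summed to 111 to 133 and 136 to 158 RPKM, with 2 of 6 called higher. Hepatocyte markers summed to 3519 to 3974 and 3218 to 3732 RPKM, with 2 of 10 called lower (Serpina1c, -0.68, adjusted p = 0.0068, and Ttr, -0.45, 0.018). The part of these markers in the member differences was not tested.

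The ratio of Cebpb to Cebpa was highest in lean unfed livers among the diet groups. Cebpb reached 0.806 ± 0.088 of the Cebpa level (SD, n = 3) in lean unfed livers, 0.126 ± 0.026 in lean fed, 0.221 ± 0.009 in obese unfed and 0.149 ± 0.010 in obese fed livers. In the injected mice it was 0.698 ± 0.213 (SD, n = 4) in unfed PBS, 0.283 ± 0.016 in fed PBS, 0.614 ± 0.135 with dex, 0.336 ± 0.160 with S961 and 0.724 ± 0.241 with both. All 4 fed PBS livers lay between 0.266 and 0.304. It was 0.358 ± 0.095 in GFP and 0.146 ± 0.039 in L-GRKO livers, and 0.455 ± 0.085 in control and 0.728 ± 0.068 in L-IRSdKO livers (SD, n = 4). Among NRF livers it averaged 0.283 at ZT10, 0.511 in ZT14-unfed and 0.129 in ZT14-fed livers (n = 2). The ratio is given as a description, because it was chosen with the levels of both genes known.

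**Figure D5:**
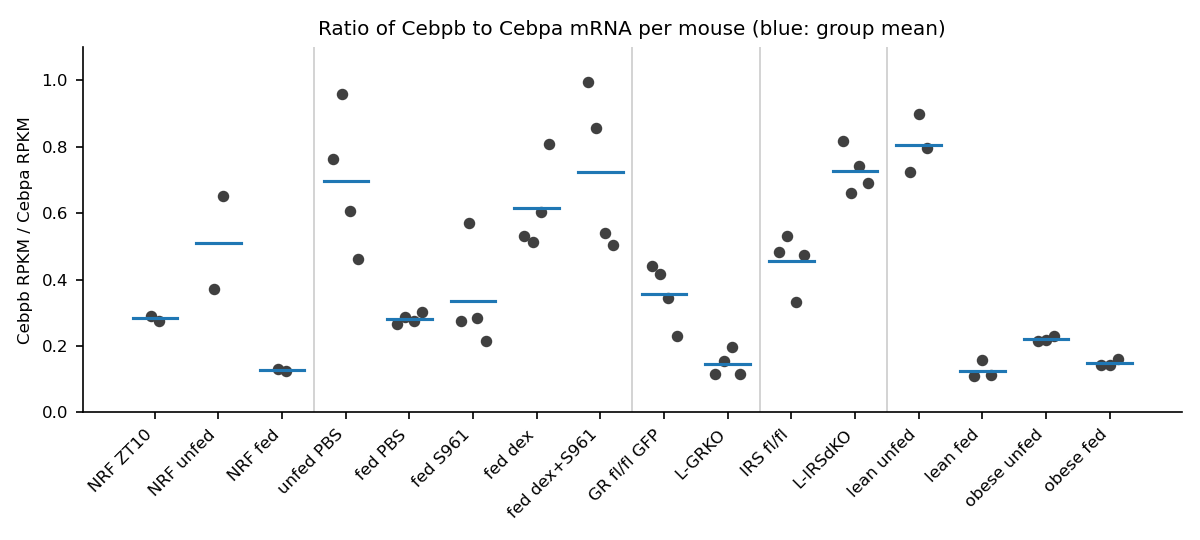
Ratio of Cebpb RPKM to Cebpa RPKM in each liver (dots) and the group mean (blue lines) in the 16 groups, with vertical lines between experiments. In the NRF, injected and lean mice all unfed dots lie above all untreated or PBS fed dots, and the L-GRKO and obese unfed livers lie at 0.116 to 0.198 and 0.214 to 0.231.

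Of the FOXA genes, Foxa3 was called higher after the meal in lean and in injected mice, and Foxa2 in lean mice. Foxa1 moved the same way in these mice without counting among the calls, as given below. No FOXA gene was called for the meal in obese mice. Foxa3, the most abundant of the 3 per transcript length in all livers except insulin receptor substrate control replicate 3, stood at 15.03, 26.5 and 19.1 RPKM in lean unfed and 32.8, 36.3 and 32.02 RPKM in lean fed livers (log2 difference 0.76, 95% interval 0.29 to 1.22, adjusted p = 0.024). In the injected mice it stood at 23.4, 23.9, 28.2 and 24.3 RPKM in unfed PBS and 39.4, 43.1, 35.7 and 42.6 RPKM in fed PBS livers, without overlap (log2 difference 0.68, 95% interval 0.39 to 0.96, adjusted p = 0.013). Replicate 4 did not stand apart for this gene, and the call held with the series term (0.68, adjusted p = 0.0066) and in replicates 1 to 3 (0.64, adjusted p = 0.034). It was lost in 1 of 18 alternatives, without unfed PBS replicate 2 (adjusted p = 0.052). The call in lean mice was kept in 9 of 14 alternatives and was lost in 5 of 6 fits that left out 1 library (adjusted p 0.054 to 0.08), the exception being lean unfed replicate 2. In obese mice Foxa3 stood at 20.99, 16.2 and 28.05 RPKM unfed and 26.2, 26.8 and 32.4 RPKM fed, with overlap, and was not called. At ZT10, ZT14-unfed and ZT14-fed it stood at 26.4 and 17.2, at 23.4 and 22.7 and at 35.6 and 39.6 RPKM (log2 difference 0.69, adjusted p = 0.067 between unfed and fed).

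Foxa2 stood at 6.24, 4.81 and 6.79 RPKM in lean unfed livers and 20.96, 14.6 and 12.1 RPKM in lean fed livers, without overlap (log2 difference 1.32, 95% interval 0.65 to 1.995, adjusted p = 0.011), and the call was kept in all 14 alternatives. In obese livers it stood at 7.76, 12.1 and 15.1 RPKM unfed and 9.36, 8.84 and 18.6 RPKM fed (log2 difference 0.04, 95% interval -0.64 to 0.71, adjusted p = 0.96). The obese unfed values lay above the lean unfed ones without passing the test (log2 difference 0.88, 95% interval 0.21 to 1.56, adjusted p = 0.12), except without obese unfed replicate 1 (adjusted p = 0.039, all alternatives 0.039 to 0.27). Nor did the meal by diet interaction pass (log2 difference -1.28, adjusted p = 0.21). In injected mice it stood at 5.44, 4.67, 7.83 and 18.6 RPKM in unfed PBS and 14.9, 16.96, 16.1 and 13.3 RPKM in fed PBS livers. The unfed replicate 4 was the highest value of both groups, and the test was passed in replicates 1 to 3 alone (1.38, adjusted p = 0.042) but not with all 4 (log2 difference 0.91, 95% interval 0.03 to 1.79, adjusted p = 0.24, all alternatives 0.042 to 0.49). Among NRF livers it stood at 4.51 and 6.83, at 5.89 and 6.55 and at 11.4 and 9.96 RPKM (log2 difference 0.73, adjusted p = 0.057 between unfed and fed).

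Foxa1, at lower levels per length than Foxa2 in all livers except L-GRKO replicate 3 and insulin receptor substrate control replicate 4, fell when dex and S961 were given together. It stood at 9.62, 13.4, 9.72 and 11.48 RPKM in fed PBS livers and 2.51, 3.01, 4.11 and 6.65 RPKM with both agents, all of the latter lower (log2 difference -1.41, 95% interval -1.997 to -0.81, adjusted p = 0.0037). The call was kept in all 18 alternatives, with adjusted p from 6.28e-04 to 0.019. With dex alone Foxa1 stood at 5.61, 4.59, 7.11 and 6.98 RPKM, also below all fed PBS values (log2 difference -0.82, 95% interval -1.41 to -0.23, adjusted p = 0.12), and passed with the series term (-0.82, adjusted p = 0.036) but not in replicates 1 to 3 (-0.87, adjusted p = 0.064), with adjusted p from 0.036 to 0.3. With S961 alone it stood at 10.4, 4.61, 4.92 and 7.56 RPKM (log2 difference -0.71, 95% interval -1.30 to -0.12, adjusted p = 0.25). In unfed PBS livers it stood at 4.31, 4.502, 6.42 and 9.84 RPKM. The meal was not called with all 4 replicates (log2 difference 0.83, 95% interval 0.24 to 1.42, adjusted p = 0.11) and was called with the series term (0.83, adjusted p = 0.035) and in replicates 1 to 3 (1.04, adjusted p = 0.035). In lean mice it stood at 2.76, 4.61 and 5.54 RPKM unfed and 8.30, 6.84 and 6.61 RPKM fed, all fed values higher, without passing (log2 difference 0.73, 95% interval 0.10 to 1.36, adjusted p = 0.088, all alternatives 0.046 to 0.27). In obese mice it stood at 5.86, 6.78 and 10.51 RPKM unfed and 7.22, 6.17 and 12.4 RPKM fed. In the NRF experiment it stood at 1.02 and 1.92, at 1.46 and 1.35 and at 2.82 and 3.01 RPKM (log2 difference 0.84, adjusted p = 0.055 between unfed and fed).

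Foxa3 also fell under the agents. It stood at 38.5, 24.6, 22.2 and 23.7 RPKM with S961, where replicate 1 lay among the fed PBS livers and the other 3 below them (log2 difference -0.58, 95% interval -0.87 to -0.30, adjusted p = 0.032). This call was kept in 9 of 18 alternatives and was lost in replicates 1 to 3 alone (-0.50, adjusted p = 0.15) and in 6 of 8 fits that left out 1 library (adjusted p 0.065 to 0.11), the exceptions being fed PBS replicate 3 and S961 replicate 1. With both agents it stood at 29.9, 26.5, 30.2 and 29.4 RPKM, all below the fed PBS values (log2 difference -0.46, 95% interval -0.75 to -0.18, adjusted p = 0.036). That call was kept in 9 of 18 alternatives and was lost in replicates 1 to 3 (-0.44, adjusted p = 0.096) and in 7 of 8 fits that left out 1 library (adjusted p 0.052 to 0.11), the exception being fed PBS replicate 3. With dex it stood at 28.1, 29.2, 33.9 and 35.6 RPKM (log2 difference -0.34, 95% interval -0.63 to -0.06, adjusted p = 0.18). Foxa2 stood at 7.58, 6.85, 11.9 and 9.14 RPKM with dex, 24.96, 9.47, 9.40 and 16.9 RPKM with S961 and 4.88, 8.64, 13.7 and 23.97 RPKM with both, and was not called. Kupffer cell markers moved with these contrasts: beside the values with both agents given above, their summed level was 73.7 to 84.5 RPKM in unfed PBS livers and 61.5 to 94.4 RPKM with S961. Of 8 such markers 3 were called higher after the meal and 3 lower with S961, and their part in the Foxa3 and Foxa1 differences was not tested.

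In L-GRKO livers no FOXA gene was called. Foxa3 stood at 22.6, 21.4, 27.9 and 32.99 RPKM in GFP and 24.98, 24.3, 24.01 and 28.2 RPKM in L-GRKO livers, with overlap (log2 difference -0.03, 95% interval -0.32 to 0.27, adjusted p = 0.94). Foxa2 stood at 5.56, 4.604, 7.99 and 10.6 RPKM and 9.38, 11.4, 8.47 and 11.47 RPKM (log2 difference 0.53, 95% interval 0.05 to 1.01, adjusted p = 0.20), and passed without GFP replicate 4 (adjusted p = 0.047, all alternatives 0.047 to 0.43). Foxa1 stood at 4.75, 4.52, 5.37 and 10.2 RPKM and 7.62, 10.7, 8.64 and 5.92 RPKM, with GFP replicate 4 inside the L-GRKO range. In L-IRSdKO livers Foxa3 was lower than in controls, at 68.2, 48.9, 52.6 and 55.00 RPKM against 81.4, 72.9, 70.9 and 69.1 RPKM, without overlap (log2 difference -0.40, 95% interval -0.64 to -0.16, adjusted p = 0.035). The call was kept in 8 of 15 alternatives and lost in 7 of 8 fits that left out 1 library (adjusted p 0.057 to 0.097), the exception being L-IRSdKO replicate 1. Foxa1 stood at 17.3, 16.2, 34.5 and 21.5 RPKM in controls and 8.65, 12.99, 13.3 and 14.6 RPKM in L-IRSdKO livers, also without overlap (log2 difference -0.79, 95% interval -1.34 to -0.23, adjusted p = 0.056, all alternatives 0.047 to 0.11). Foxa2 stood at 35.8, 22.96, 74.6 and 20.9 RPKM and 13.98, 30.3, 33.5 and 23.5 RPKM, with wide overlap.

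Onecut1 was the most variable member and was called in 0 of the 17 comparisons. Its range from the lowest to the highest liver was the widest of the 8 genes in each of the 5 experiments, at 5.19-fold in NRF, 15.6-fold in injected, 7.47-fold in GR, 10.2-fold in insulin receptor substrate and 10.6-fold in diet libraries. Within single groups it ran from 8.46 to 85.9 RPKM (insulin receptor substrate controls) and from 2.85 to 26.0 RPKM (obese unfed). In injected mice it stood at 2.96, 2.52, 2.496 and 24.8 RPKM in unfed PBS and 19.4, 29.5, 39.04 and 12.6 RPKM in fed PBS livers. Replicates 1 to 3 were far apart between the groups, and replicate 4 ran the other way, with 24.8 RPKM unfed and 12.6 RPKM fed. The meal was not called with all 4 replicates (log2 difference 2.15, 95% interval 0.74 to 3.56, adjusted p = 0.086). In replicates 1 to 3 it was (log2 difference 3.19, adjusted p = 0.0036), and it was without unfed PBS replicate 4 (adjusted p = 0.012), with adjusted p over all alternatives from 0.0036 to 0.22. In lean mice it stood at 3.47, 5.35 and 9.91 RPKM unfed and 30.2, 27.3 and 13.7 RPKM fed, all fed values higher (log2 difference 1.88, 95% interval 0.39 to 3.37, adjusted p = 0.066, all alternatives 0.014 to 0.18). In obese mice it stood at 16.01, 2.85 and 26.03 RPKM unfed and 4.54, 8.80 and 12.8 RPKM fed, with the unfed range enclosing the fed one. In the NRF groups it stood at 1.65 and 7.58, at 5.01 and 1.65 and at 6.98 and 8.56 RPKM. With dex it stood at 24.6, 29.2, 31.9 and 11.8 RPKM, with S961 at 37.4, 8.24, 11.7 and 12.3 RPKM and with both at 4.64, 9.87, 19.7 and 38.7 RPKM. GFP and L-GRKO livers held 4.25, 11.4, 6.97 and 17.9 RPKM and 4.37, 7.01, 3.61 and 2.39 RPKM (log2 difference -1.04, 95% interval -1.90 to -0.18, adjusted p = 0.16), and without GFP replicate 1 this passed (adjusted p = 0.049, all alternatives 0.049 to 0.35).

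Prox1 was also called in 0 comparisons, with a range of 2.11-fold in NRF, 4.65-fold in injected, 2.48-fold in GR, 1.86-fold in insulin receptor substrate and 3.16-fold in diet libraries. It stood at 24.7, 23.7 and 20.4 RPKM in lean unfed, 23.7, 25.1 and 30.4 RPKM in lean fed, 12.2, 28.1 and 30.1 RPKM in obese unfed and 38.5, 36.1 and 30.4 RPKM in obese fed livers. The lowest obese fed liver matched the highest lean fed one, and the meal in obese mice did not pass (log2 difference 0.66, 95% interval 0.07 to 1.26, adjusted p = 0.15). In injected mice it stood at 27.4, 28.9, 29.6 and 33.8 RPKM in unfed PBS, 18.1, 12.4, 27.1 and 55.8 RPKM in fed PBS, 12.01, 14.2, 12.8 and 21.7 RPKM with dex, 18.5, 38.5, 26.9 and 41.3 RPKM with S961 and 17.9, 20.8, 17.5 and 23.2 RPKM with both. Dex did not pass (log2 difference -0.69, 95% interval -1.38 to -0.01, adjusted p = 0.26). It stood at 35.01, 14.2, 20.9 and 16.95 RPKM in GFP, 35.1, 24.8, 26.7 and 24.6 RPKM in L-GRKO, 29.9, 35.99, 26.9 and 36.7 RPKM in control and 39.3, 21.2, 27.1 and 32.1 RPKM in L-IRSdKO livers, all pairs overlapping. The NRF groups held 14.6 and 8.72, then 8.04 and 12.4 and 12.9 and 16.98 RPKM.

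Within each of the 5 experiments Cebpa had the highest median level of the 8 genes. Its median was 61.4 RPKM in NRF, 55.1 RPKM in injected, 122 RPKM in GR and 104 RPKM in diet livers. In insulin receptor substrate livers it was 123 RPKM, on a different RPKM scale, so this value is not set against the others. Cebpd had the lowest median in injected (3.61 RPKM), GR (1.81 RPKM) and diet livers (1.67 RPKM), and Foxa1 had it in NRF (1.69 RPKM) and insulin receptor substrate livers (15.4 RPKM). In diet livers the medians of Foxa3 (26.6 RPKM), Prox1 (26.6 RPKM) and Cebpb (19.7 RPKM) followed that of Cebpa (104 RPKM), ahead of Onecut1 (11.4 RPKM), Foxa2 (10.7 RPKM) and Foxa1 (6.69 RPKM). The ranges of neighbours in this order overlapped, except that the lowest Cebpa liver (69.7 RPKM) lay above the highest liver of Foxa3 (36.3 RPKM).

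Of 16 known hepatocyte targets of C/EBP or FOXA factors, all tested, 5 fell and 0 rose with the lean meal, where 23.4% of all genes were called. Among the 5 were Igfbp1 (log2 difference -6.22, adjusted p = 6.25e-05), Pck1 (-2.55, 2.99e-04), G6pc (-2.09, 0.0026) and Tat (-1.997, 1.44e-04). Igfbp1 encodes an insulin-like growth factor binding protein, Pck1 and G6pc the gluconeogenic enzymes, and Tat tyrosine aminotransferase. In the paper Pck1 and Tat responded mainly to dex, G6pc mainly to S961, and Igfbp1 to both. The part of the members in the changes of these targets was not tested. The median over the 16 was -0.10, against 0.08 over all genes. In unfed obese mice 4 of 16 were lower than in lean mice (Igfbp1, Tat, G6pc and Pck1, median -0.13 against 0.07, background 5.22%), and the meal lowered 2 in obese mice (Igfbp1 and Gys2, median 0.06 against 0.02, background 7.65%). In L-GRKO livers 6 fell, among them Igfbp1 (-2.63, 0.0019), Cps1 (-0.90, 0.0017) and Hp (-0.83, 0.0078), with a median of -0.37 against 0.08 (background 6.68%). In L-IRSdKO livers 4 rose, Igfbp1 (3.30, 6.25e-04) and G6pc (0.98, 0.0067) among them, and 1 fell (background 17.4%). The injected meal lowered 4 (background 3.13%), dex raised 3 (3.19%), S961 raised 2 (1.89%) and both together raised 4 (10.6%), with 0 moving the other way. In NRF livers 4 fell between ZT14-unfed and ZT14-fed (0.990%) and 2 rose between ZT10 and ZT14-unfed (1.16%). The meal by diet interaction was called for Igfbp1 (3.93, 0.018), G6pc (2.56, 0.047) and Tat (1.99, 0.0076), 3 of 16 (background 0.744%). The list was written with earlier results of these data known and is described by its counts only.

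Of 6 other C/EBP family members and partners tested in the lean meal, Cebpz (0.31, adjusted p = 0.022) and the C/EBP homologue Ddit3 (0.85, 0.013) rose and Trib3, a pseudokinase, fell (-1.57, 0.017), with a median of 0.12 against 0.08 over all genes. Ddit3 rose in the obese meal too (1.41, 0.0050), as did Cebpz (0.36, 0.028). With dex and S961 together Trib3 rose (1.36, 0.0030) and Ddit3 fell (-1.03, 0.042). In L-IRSdKO livers Trib3 rose (1.94, 0.0068), and Ddit3 (-1.16, 0.040) and Cebpe (-1.60, 0.024) fell. Among NRF livers Ddit3 rose between ZT14-unfed and ZT14-fed (1.51, 0.0031), and Cebpe fell between ZT10 and ZT14-unfed (-1.44, 0.0084). In L-GRKO and in unfed obese livers 0 of the 6 were called. The share of all genes called in each of these comparisons, from 0.990% to 23.4%, is that given for the members.

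Of the other liver-enriched factors, 15 or 16 of the 17 listed were tested per experiment. The lean meal lowered Foxo3 (-1.33, adjusted p = 3.40e-04) and Foxo1 (-1.23, 5.99e-04) and raised 3, among them Gata4 (0.85, 0.0061) and Tbx3 (1.08, 0.037), with a median of -0.01 against 0.08 over all genes. The obese meal lowered Nfib (-0.51, 0.0064) and called no other. In unfed obese livers Hnf4a (-0.48, 0.035) and Foxo3 (-0.75, 0.017) were lower and Nfib (0.56, 0.0050) was higher than in lean. With dex and S961 together Hhex (-2.42, 0.0017), Onecut2 (-0.90, 0.0062) and Gata4 (-0.89, 0.0082) fell and Foxo1 rose (0.66, 1.72e-04). In L-GRKO livers Tbx3 (1.06, 0.025) and Nfib (0.55, 0.0099) rose, and in L-IRSdKO livers Cux2 alone was called (3.37, 0.0017).

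The genes whose levels followed each member most closely were found by Pearson correlation of log2(RPKM + 0.5), centred on each experiment's mean, over the 54 libraries and 8993 genes that averaged 1 RPKM or more in every experiment. Cebpb was followed by Nfkbia (0.87), Cebpd (0.86) and Pim3 (0.84), and Cebpd by Cebpb and Zfp36 (0.79). Cebpa was followed by Esrp2 (0.83), Pabpn1 (0.83) and Arglu1 (0.81). Among the forkhead genes, Foxa1 was followed by Phlda1 (0.79), Foxa2 (0.77) and Hhex (0.75), Foxa2 by Foxa1, Phlda1 (0.72) and Fgfr3 (0.70), and Foxa3 by Zfp324 (0.82), Gmppb (0.82) and Pkdcc (0.80). Onecut1 was followed by Cish (0.75), Aacs (0.74) and Alas1 (0.72), and Prox1 by Tbx3 (0.80), Nfe2l1 (0.76) and G0s2 (0.74). Between members, Cebpa correlated at -0.13 with Cebpb and at 0.67 with Foxa2, and Cebpb at -0.48 with Foxa1. The points share treatment groups, sequencing depth and, in the injected mice, library series, so these values are descriptions.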

How the data were processed

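Liver RNA-seq of 54 mice in 16 groups was analysed, with 1 mouse per library. The authors aligned reads to mm9 with STAR and deposited RPKM values per RefSeq transcript made with HOMER (versions are not given in the sources used here). The table held 35707 transcripts, of which 305 had no symbol, and 0 value columns were left unused. The authors deposited GR and FOXO1 ChIP-seq peaks shared by replicate libraries (10446 and 8546) and DHSs called on combined reads (83592). These are positions without heights, and H3K27Ac data were not used here.

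Each experiment was fitted apart, with all its groups, in limma 3.58.1 (R 4.3.3) on log2(RPKM + 0.5) with trended variances, for genes of mean 0.5 RPKM or more. P-values were two-sided and Benjamini-Hochberg adjusted over all genes tested, with thresholds of 0.01 (NRF) and 0.05. Fold changes on this scale understate those of low genes. The procedure was first tested on simulated data. Alternatives were pseudocounts of 0.1 and 1, a filter at 2 RPKM or none, median-ratio scaling, the sum of all transcripts of a symbol, compared groups alone, a replicate block, a term for the library series of the injected mice, and leaving out each library. Whether replicate numbers pair the mice was checked by the correlation of same-numbered mice's deviations from their group means, with a pair counted over 0.1. Of the injected mice 27 of 40 were over (-0.12 to 0.60), and all 4 in 2 of 10 group pairs, S961 against dex with S961 (0.11 to 0.59) and dex against dex with S961 (0.11 to 0.44), so blocked values stand beside those results where they change a call. Peaks were assigned by the distance of their centre to the gene start (GENCODE vM1).

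The members and the gene lists (other C/EBP family members and partners, other liver-enriched factors, hepatocyte targets, and markers of hepatocytes, Kupffer cells, endothelium, stellate cells, cholangiocytes, neutrophils and lymphocytes) were chosen with earlier results of these data known. The text names all 8 members, of each list at most 4 called genes of the largest change per comparison, Nr3c1, Irs1 and Irs2 as checks, and the 3 genes most correlated with each member, except for results that are not reported here.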

Additional observations from a re-analysis of the deposited data

Results flagged for a closer look

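Among 72 sets of 4 livers (9 groups by 8 genes), 8 held a liver whose gap to its nearest neighbour was past Dixon's 95% critical value, where chance alone gives about 1 in 20. Of these, 4 were replicate 4 of an injected group: Cebpa at 131.341 RPKM in fed PBS and 99.583 RPKM in unfed PBS, Cebpb at 39.882 RPKM in fed PBS, and Onecut1 at 24.799 RPKM in unfed PBS. S961 replicate 1 stood apart for Foxa3 (38.541 RPKM) and Onecut1 (37.402 RPKM), the highest values of their group. In the GR experiment, L-GRKO replicate 4 was low for Cebpd (0.608 RPKM) and GFP replicate 4 was high for Foxa1 (10.156 RPKM).

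The effect of the meal differed between obese and lean mice, by the limma interaction term, for Cebpa (log2 difference -0.819), Cebpb (1.269) and Cebpd (1.511), each within 3 mice per group.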

How the results depend on the processing

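Members called were recounted under each alternative. At a threshold of 0.05, the NRF experiment gave 2 calls between ZT14-unfed and ZT14-fed and 2 between ZT10 and ZT14-fed, with 1 when those groups were fitted alone. At a threshold of 0.01, 0 calls were left for the injected meal, S961, L-GRKO, L-IRSdKO, the obese meal and the meal by diet interaction, 1 for dex with S961 and 3 for the lean meal. Without the filter on low genes, L-GRKO gave 1 call and the obese meal and the meal by diet interaction 0. S961 gave 0 calls with median-ratio scaling, with its 2 groups alone and in replicates 1 to 3, and the obese meal gave 0 with its groups alone. With the replicate block, the injected meal gave 4 calls, dex 3, dex added to S961 2 and the meal by diet interaction 1. Correlations of same-numbered mice over 0.1 were 27 of 40 in injected mice, so they were not confined to the 2 group pairs named in the methods. Replicate 4 of the injected mice ran from 0.44 to 0.60. Elsewhere such correlations were 0 of 6 in NRF, 1 of 4 in GR, 0 of 4 in insulin receptor substrate and 3 of 18 in diet mice. With the library series as a term, the injected meal gave 3, dex 3 and dex added to S961 2, and in replicates 1 to 3, a choice made after seeing the data, the meal gave 5 and dex added to S961 2. Leaving out 1 library gave 0 to 2 calls for NRF unfed to fed, 0 to 3 for the injected meal, 0 to 1 for S961, 1 to 2 for dex with S961, 1 to 4 for L-GRKO, 1 to 2 for L-IRSdKO, 0 to 1 for the obese meal and 0 to 3 for the meal by diet interaction. In NRF these fits leave 1 mouse in a group, assumed to vary like the others.

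Of the values of called members, 272 stayed past the threshold and 98 did not. Of uncalled ones, 738 stayed on their side, 40 passed and 14 changed sign. The sign changes came from leaving out 1 library, with log2 differences of -0.117 to 0.088 for Foxa3 in L-GRKO, -0.134 to 0.036 for Cebpa, -0.026 to 0.304 for Cebpd and -0.295 to 0.240 for Foxa2 in the obese meal, and -0.117 to 0.174 for Cebpb and -0.139 to 0.191 for Cebpd between obese and lean fed livers. The cause was not tested. Depth limits Cebpd most, with 12 reads in its lowest library. GR peaks lay within 20 kb of 7 members and within 100 kb of 8.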
